A study of Homo sapiens with 6 samples.

Results

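The 10 genes described here encode parts of the Notch pathway: the receptors NOTCH1, NOTCH2 and NOTCH3, the ligands JAG1 and JAG2, the Fringe enzymes LFNG and MFNG, and the target genes HES1, HEY1 and NRARP. They were picked by gene name from a list set up with earlier results of these data known, and all 10 were found among the 26475 genes of the deposited table over all libraries. Messenger RNA was measured in 6 libraries of 3 groups, PC9, PC9-BrM4 and PC9-AMG, with 2 libraries in each. PC9 is an established line of human lung adenocarcinoma cells whose EGFR carries an activating mutation. PC9-BrM4 and PC9-AMG carry the PC9 name and are called the derived lines below, and the labels do not say how they were made. All 3 groups were cultured in MGS, which the labels do not spell out, and no library of cells outside MGS was analysed here. The library descriptions also hold the word mix, which is not explained, so it is not known whether RNA of other cells is part of the levels below. No drug, added gene or genotype is given for any group, and each line is 1 line. Whether a group's libraries came from separate cultures is not stated in the labels, so the p-values measure only the spread between these libraries, which may be technical.

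Notch receptors are cut at the cell surface once a ligand on a neighbouring cell binds them. The freed intracellular part enters the nucleus, joins the DNA-binding protein RBPJ and a Mastermind coactivator, and switches on target genes such as HES1, HEY1 and NRARP. Fringe enzymes add a sugar to the fucose on the receptors' EGF-like repeats and so change how well Delta-like and Jagged ligands act on them. In the airway, Notch signalling is known for favouring secretory over ciliated cells and for holding back the neuroendocrine fate. Messenger RNA levels were measured here, and receptor cutting was not.

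RBPJ reaches its targets through a short core motif, so the promoters of the target genes are shown first. The sequences below are the 250 bases before the RefSeq start of HES1 (GRCh38.p14, chr3:194135898-194136147, plus strand), HES4 (chr1:1000098-1000347, minus strand) and NRARP (chr9:137302272-137302521, minus strand), 5′ to 3′ on the gene's strand. HES4, a transcriptional repressor related to HES1, is outside the 10 genes and is shown for its values below. Capitals mark the core TGGGAA, searched on both strands (TTCCCA is its reverse complement).
HES1: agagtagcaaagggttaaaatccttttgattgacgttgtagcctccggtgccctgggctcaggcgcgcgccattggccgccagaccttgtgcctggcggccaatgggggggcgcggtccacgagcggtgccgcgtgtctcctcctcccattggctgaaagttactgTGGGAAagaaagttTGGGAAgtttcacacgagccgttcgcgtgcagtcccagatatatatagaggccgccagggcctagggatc
HES4: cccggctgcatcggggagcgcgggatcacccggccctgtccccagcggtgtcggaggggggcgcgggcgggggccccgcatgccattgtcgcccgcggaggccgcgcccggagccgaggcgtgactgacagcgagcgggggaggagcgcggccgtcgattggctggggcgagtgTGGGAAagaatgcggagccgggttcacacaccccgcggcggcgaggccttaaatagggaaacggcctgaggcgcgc
NRARP: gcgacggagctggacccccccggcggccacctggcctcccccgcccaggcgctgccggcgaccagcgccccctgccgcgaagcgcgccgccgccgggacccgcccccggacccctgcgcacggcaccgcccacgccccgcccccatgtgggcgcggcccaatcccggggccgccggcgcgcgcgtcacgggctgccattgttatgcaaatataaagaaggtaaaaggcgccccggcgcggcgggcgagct
HES1 held 2 cores, starting 84 and 70 bases before the start, and HES4 held 1, starting 76 bases before it. NRARP held 0 in this window. Of 35116 RefSeq windows of this length, 20.8% held at least 1 core and 2.9% held at least 2. Windows were found for 8 of the 10 genes (not MFNG or HEY1), and HES1 and LFNG were the 2 with a core. LFNG has 2 windows, and the core lies in the second, 248 bases before that start. A match of 6 letters is a description, not a binding site.

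Read counts are in none of the tables used, and the depth of each library is therefore unknown. Coverage at 1 TPM (a transcript level scaled to gene length and to one fixed library total) was between 0.606 and 0.822 reads per base over the 6 libraries. It was 0.822 and 0.749 in PC9-AMG and between 0.606 and 0.664 in the other groups. The part of this difference in the results was not tested. The value is the most frequent ratio, held by 55.5% to 56.8% of the rows above 1 TPM. In each library 13848 to 14171 genes reached 1 TPM. All 8 epithelial markers were tested, and their summed level was 17124 to 17373 TPM in PC9, 13029 to 13622 in PC9-BrM4 and 15224 to 15690 in PC9-AMG. Astrocyte markers summed to 32.4 to 35.9, 27.0 to 27.9 and 69.8 to 75.5 TPM in the same order. GFAP, S100B and FABP7 were at 0 in all 6 libraries, and 5 of the 8 astrocyte markers stayed under 1 TPM in all. APOE held most of the sum in PC9-AMG at 40.8 ± 1.56 TPM (SD, n = 2). It was higher there than in PC9 (difference 1.76, limma adjusted p = 0.00245) and than in PC9-BrM4 (2.70, 4.98e-05). In PC9-BrM4 against PC9 it was lower (-0.93, 0.0144). ALDH1L1 was at 22.5, 19.1 and 31.2 TPM in PC9, PC9-BrM4 and PC9-AMG. SLC1A3 had another order, at 0, 2.78 and 0.506 TPM. It was higher in PC9-BrM4 than in PC9 (1.90, 0.00178) and lower in PC9-AMG than in PC9-BrM4 (-1.31, 0.011). Of 8 microglia and leukocyte markers 6 were at 0 in every library, and the list summed to 6.98 to 7.45, 9.70 to 9.96 and 6.85 to 9.40 TPM, nearly all of it CSF1R. Of 6 oligodendrocyte markers 3 were at 0 (sums 23.9 to 24.6, 22.3 to 26.8 and 20.7 to 21.6), with MBP at 20.2 to 26.8 TPM. Of 6 fibroblast and pericyte markers 2 were at 0 (sums 9.32 to 11.2, 16.1 to 17.9 and 9.29 to 15.6), with COL1A1 at 8.92 to 17.1 TPM and a difference of 0.67 in PC9-BrM4 against PC9 that was not called (limma adjusted p = 0.0664). Of 6 endothelial markers 4 stayed under 1 TPM in every library (sums 27.4 to 28.1, 29.1 to 29.8 and 21.3 to 24.2), with ESAM at 19.8 to 28.2 TPM and CDH5 at up to 1.33. CSF1R, MBP, COL1A1, ESAM and CDH5 were named after their values were seen. Ribosomal protein genes summed to 81243 to 81594 TPM in PC9, 67851 to 75962 in PC9-BrM4 and 87987 to 93181 in PC9-AMG. The part of these sums in the results was not tested. In bulk RNA, fewer cells with a transcript and less of it per cell cannot be told apart.

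PC9-BrM4 against PC9 asks how the BrM4 line differs from the line whose name it carries. JAG1 and JAG2 were lower in PC9-BrM4 and NRARP was higher. These were 3 of the 9 genes tested, beside 16.3% of all 14627 tested genes, with 1 of 9 higher (9.89% of all) and 2 of 9 lower (6.45% of all). In PC9-AMG against PC9, LFNG and JAG1 were lower and NRARP was higher, again 3 of 9, beside 7.49% of all tested genes, with 1 higher (3.67% of all) and 2 lower (3.82% of all). In PC9-AMG against PC9-BrM4, LFNG alone was called, lower in PC9-AMG, or 1 of 9 beside 18.6% of all tested genes, with 0 higher (6.31% of all) and 1 lower (12.3% of all). Calls rest on limma's two-sided test of log2(TPM + 1), and a gene counts as called where its p, adjusted by Benjamini-Hochberg over every tested gene, is under 0.05. Differences are on that scale, which understates the change of low genes. The median difference of the 9 genes was -0.01, -0.26 and -0.16 in the 3 comparisons, and that of all tested genes was 0.087, -0.051 and -0.131. Both comparisons against PC9 share the PC9 libraries. The 2 groups compared did not overlap for 6, 5 and 5 of the 9 genes, beside 61.2%, 59.8% and 59.5% of all tested genes. With 2 libraries a group, such separation was common, and the descriptions of it below carry no test.

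These counts moved with the scaling and with single libraries. Under median centring the split in PC9-BrM4 against PC9 was 0 higher and 3 lower, with NOTCH3 called and NRARP not. In both comparisons against PC9, fewer of the 9 genes were called without any 1 of the libraries compared. Fewer of all tested genes were called in each of these fits too. In PC9-AMG against PC9, LFNG kept its call in each. In PC9-AMG against PC9-BrM4, more of the 9 were called without PC9-BrM4 library 2, where more of all tested genes were called too. More of the 9 were also called without either PC9-AMG library, where fewer of all tested genes were called.

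**Figure D1:**
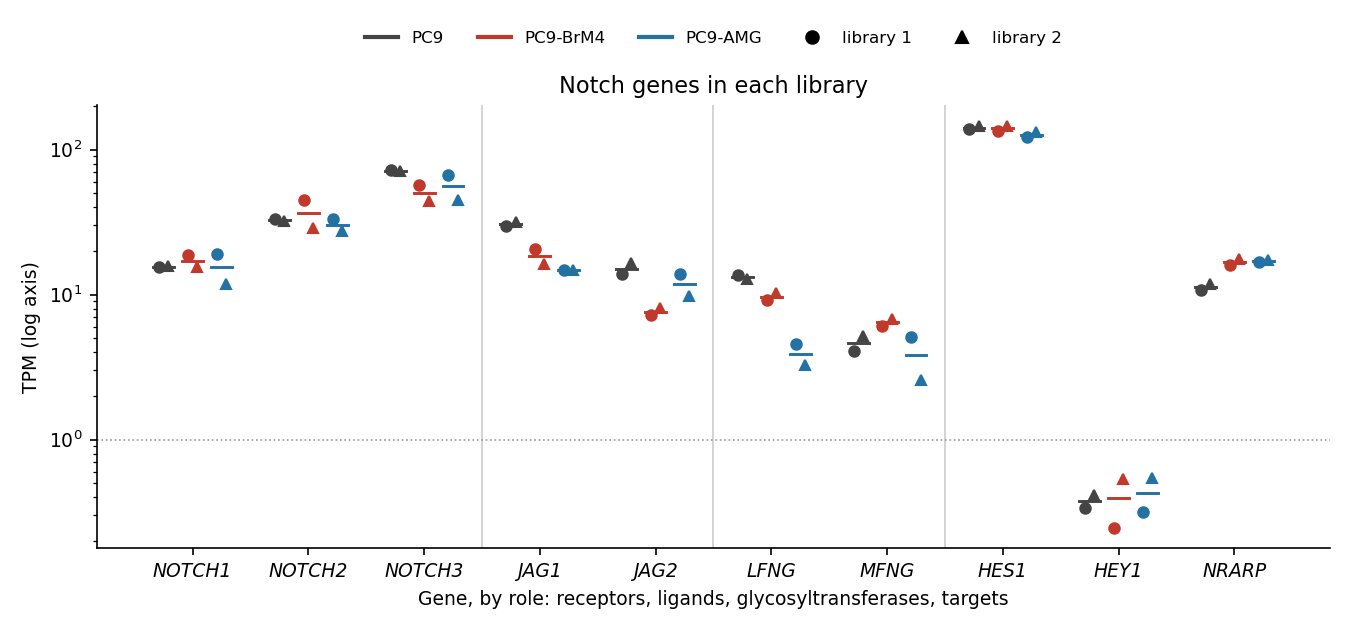
Level of each of the 10 genes in each of the 6 libraries, in TPM on a log axis, with circles for library 1, triangles for library 2 and a short bar for each group mean; the dotted line marks 1 TPM. The PC9 libraries of JAG1 (29.9 and 31.5 TPM) lie above all others, and both PC9-AMG libraries of LFNG (4.53 and 3.26 TPM) lie below the other 4.

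None of the 3 receptors was called in any comparison. NOTCH3 had the highest level of the 3 in each library, ahead of NOTCH2 and then NOTCH1, and NOTCH4 stayed between 0 and 0.236 TPM, below the level tested. In PC9-BrM4 the NOTCH3 libraries (44.0 and 56.6 TPM) and the NOTCH2 libraries (28.6 and 44.9 TPM) overlapped. At an unadjusted p under 0.05 in limma, 1 of the 9 receptor tests (NOTCH3, PC9-BrM4 against PC9) passed.

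NOTCH3 (chromosome 19, 15159633 to 15200981, minus strand; hg38 here and below) is a receptor best known from vascular smooth muscle. Its level was 71.7 and 71.6 TPM in PC9, 56.6 and 44.0 in PC9-BrM4, and 66.3 and 44.9 in PC9-AMG. Both PC9 libraries stood above the other 4, and the libraries of each derived line lay far apart. The difference of PC9-BrM4 from PC9 was -0.51 ± 0.178 (SE; 95% interval -0.91 to -0.11) and missed the threshold (limma adjusted p = 0.0803). It passed under 9 of 20 alternatives (adjusted p from 0.0232 to 0.336 over all 20), median centring among them (0.0305). In PC9-AMG against PC9 it was -0.38 (-0.78 to 0.01; adjusted p = 0.21).

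NOTCH2 (chromosome 1, 119911553 to 120069703, minus strand) stood at 33.0 and 32.1 TPM in PC9, 44.9 and 28.6 in PC9-BrM4, and 33.1 and 27.6 in PC9-AMG. PC9-BrM4 library 1 was the highest of all, and its other library was below PC9. Its differences from PC9 were 0.14 (adjusted p = 0.675) and -0.10 (0.78), in limma. NOTCH2NL, a near-identical partial copy, was listed at 4.93 to 7.51 TPM, so the split of reads between them is uncertain. NOTCH1 (chromosome 9, 136494444 to 136545786, minus strand) was at 15.4 and 15.6 TPM in PC9, 18.6 and 15.4 in PC9-BrM4, and 19.0 and 11.9 in PC9-AMG. The groups overlapped, and the PC9-AMG libraries held both the highest and the lowest value. Its differences from PC9 were 0.12 (adjusted p = 0.734) and -0.04 (0.921).

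The summed receptor level was 120 and 119 TPM in PC9, 120 and 88.3 in PC9-BrM4, and 119 and 84.6 in PC9-AMG. In both derived lines NOTCH1, NOTCH2 and NOTCH3 were each lower in library 2 than in library 1. The part of this gap in the NOTCH3 difference was not tested. NOTCH3 made up 59.7% and 60.0% of the sum in PC9, 47.0% and 49.9% in PC9-BrM4, and 55.9% and 53.1% in PC9-AMG. The shares of NOTCH3 did not overlap between the 3 groups, with PC9 highest and PC9-BrM4 lowest; this is a description with no test. The share of NOTCH2 was between 26.9% and 37.3%, and that of NOTCH1 between 12.8% and 17.5%. Between the libraries of PC9-AMG, NOTCH1 differed by 0.64 and NOTCH3 by 0.55 on the log2 scale, and between those of PC9-BrM4, NOTCH2 differed by 0.63. The 95th percentile of that gap over all tested genes was 0.62 in PC9-AMG and 0.64 in PC9-BrM4, so these receptors lay near the upper end of the spread between libraries.

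Among the ligands, JAG1 was lower in both derived lines and JAG2 in PC9-BrM4. JAG1 (chromosome 20, 10637684 to 10674046, minus strand) is a Jagged ligand. Its level was 29.9 and 31.5 TPM in PC9, 20.6 and 16.3 in PC9-BrM4, and 14.7 and 14.8 in PC9-AMG. No library of either derived line reached the PC9 level, and PC9-AMG lay below both PC9-BrM4 libraries. Of all tested genes, 61.2%, 59.8% and 59.5% also separated in the 3 comparisons.

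Mean JAG1 in PC9-BrM4 was 60.1% of that in PC9, a difference of -0.71 ± 0.143 (95% interval -1.03 to -0.39; limma adjusted p = 0.00907). Without PC9 library 1 or PC9 library 2 the adjusted p was 0.0612 or 0.0912, and over all 20 alternatives it ran from 0.00136. In PC9-AMG the mean was 48.0% of PC9, a difference of -1.01 ± 0.143 (-1.33 to -0.69; adjusted p = 0.00585). Without PC9 library 2 or PC9-AMG library 2 that p was 0.0567 or 0.0552. The difference between the derived lines was -0.30 (-0.62 to 0.02) and was not called (adjusted p = 0.168, and 0.0472 without PC9-BrM4 library 2).

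JAG2 (chromosome 14, 105140981 to 105168824, minus strand), the other Jagged ligand, was at 13.8 and 16.4 TPM in PC9, 7.18 and 8.02 in PC9-BrM4, and 13.8 and 9.71 in PC9-AMG. Both PC9-BrM4 libraries lay below all other libraries, and PC9-AMG library 1 stood at about the lower PC9 value. Mean JAG2 in PC9-BrM4 was 50.3% of PC9, a difference of -0.90 ± 0.186 (95% interval -1.32 to -0.49; limma adjusted p = 0.0102). The call was lost without PC9 library 2 (0.0959), without PC9-BrM4 library 1 (0.0804) and with no filter on low genes (0.0505). PC9-AMG against PC9 gave -0.35 (adjusted p = 0.273). PC9-AMG against PC9-BrM4 gave 0.55 (0.14 to 0.97; adjusted p = 0.0652), which passed under 7 of 20 alternatives, among them median centring (0.0245) and leaving out PC9-AMG library 2 (0.047).

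Delta-like ligands were low. DLL3, a Delta-like ligand known for blocking Notch in the same cell, stood at 2.74 ± 0.0498 TPM in PC9, 1.97 ± 0.513 in PC9-BrM4 and 4.33 ± 0.120 in PC9-AMG (SD, n = 2). It was higher in PC9-AMG than in PC9-BrM4 by 0.86 (adjusted p = 0.0202), a call lost without PC9-BrM4 library 2 or either PC9-AMG library (at most 0.0832). DLL1 and DLL4 stayed under 1 TPM, and DLK1 was listed at 0. DNER, a transmembrane protein with EGF-like repeats described as a non-classical ligand, was at 6.05 ± 0.362, 9.46 ± 0.0973 and 2.48 ± 0.805 TPM. It was lower in PC9-AMG than in PC9 (difference -1.04, adjusted p = 0.0171) and than in PC9-BrM4 (difference -1.61, adjusted p = 7e-04), the second call holding under all 20 alternatives and the first lost without either PC9 library or PC9-AMG library 1 (at most 0.125).

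The sum of JAG1, JAG2 and the 3 Delta-like ligands was 46.7 and 51.1 TPM in PC9, 30.1 and 25.9 in PC9-BrM4, and 33.0 and 28.9 in PC9-AMG. Both PC9 libraries lay above the other 4. JAG1 was 2.17 and 1.92 times JAG2 in PC9, 2.87 and 2.03 times in PC9-BrM4, and 1.06 and 1.52 times in PC9-AMG. PC9-AMG thus had the lowest ratios of the 3 groups, and the other groups overlapped; DLL3 took 13.4% and 14.7% of the sum there and at most 7.73% elsewhere. These ratios and shares carry no test.

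**Figure D2:**
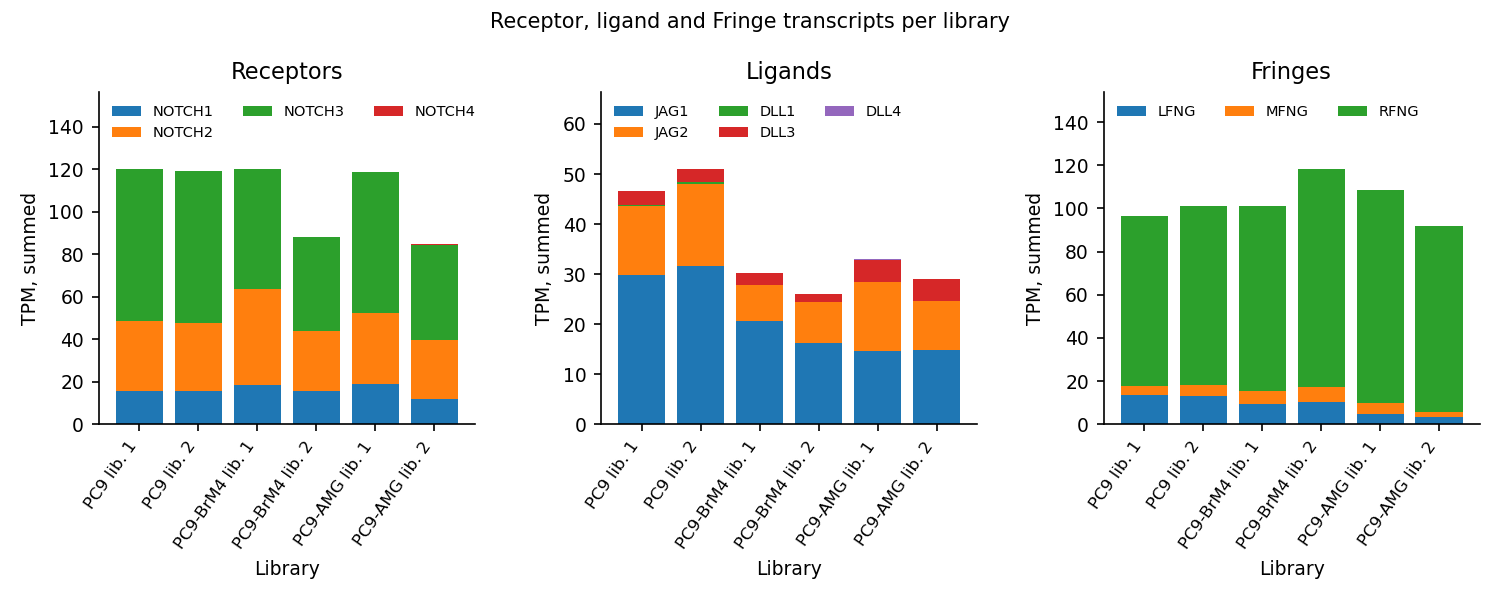
Summed level of the receptors, the Jagged and Delta-like ligands, and the Fringe enzymes in each library, in TPM, with 1 stacked bar per library and 1 colour per gene. NOTCH3 takes the largest part of each receptor bar (47.0% to 60.0%), the PC9 ligand bars (46.7 and 51.1 TPM) are the highest, and RFNG fills most of each Fringe bar.

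LFNG, or Lunatic fringe, was lower in PC9-AMG than in both other lines, and its relatives MFNG and RFNG were not called in any comparison. LFNG (chromosome 7, 2512529 to 2529176, plus strand) was at 13.7 and 12.9 TPM in PC9, 9.12 and 10.2 in PC9-BrM4, and 4.53 and 3.26 in PC9-AMG. The 3 groups did not overlap, with PC9 highest and PC9-AMG lowest. Between 59.5% and 61.2% of all tested genes separated in any 1 comparison.

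Mean LFNG in PC9-AMG was 29.3% of PC9 and 40.3% of PC9-BrM4. The differences were -1.56 ± 0.177 (95% interval -1.95 to -1.16; limma adjusted p = 0.00212) and -1.13 ± 0.177 (-1.53 to -0.74; 0.00246). Both held under all 20 alternatives, the first between -1.76 and -1.29 (adjusted p at most 0.0407) and the second between -1.32 and -0.88 (at most 0.0272). In PC9-BrM4 LFNG was 72.7% of PC9, a difference of -0.42 (-0.82 to -0.03) that was not called (adjusted p = 0.137) and passed in 1 alternative, with the length trend removed (0.0492).

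MFNG, or Manic fringe (chromosome 22, 37469063 to 37486440, minus strand), stood at 4.09 and 5.18 TPM in PC9, 6.07 and 6.81 in PC9-BrM4, and 5.10 and 2.60 in PC9-AMG. The PC9-BrM4 libraries were the 2 highest, and the PC9-AMG libraries lay on either side of the lower PC9 value. The differences were 0.41 and -0.26 from PC9 and -0.67 between the derived lines (limma adjusted p = 0.313, 0.558 and 0.0922), the last passing without PC9-AMG library 1 (0.0336). RFNG, or Radical fringe, was the highest of the 3, at 78.8 and 83.0 TPM in PC9, 85.9 and 101 in PC9-BrM4, and 99.0 and 86.2 in PC9-AMG, with the derived lines overlapping.

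LFNG made up 14.2% and 12.8% of the summed Fringe level in PC9, 9.02% and 8.61% in PC9-BrM4, and 4.17% and 3.54% in PC9-AMG. RFNG took between 81.6% and 93.6%, and the sum itself was between 92.1 and 118 TPM. The sum in PC9-AMG (109 and 92.1 TPM) overlapped with both other groups. The sums of PC9 (96.6 and 101.01) lay just below those of PC9-BrM4 (101.09 and 118). The share of LFNG did not overlap between the 3 groups.

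**Figure D3:**
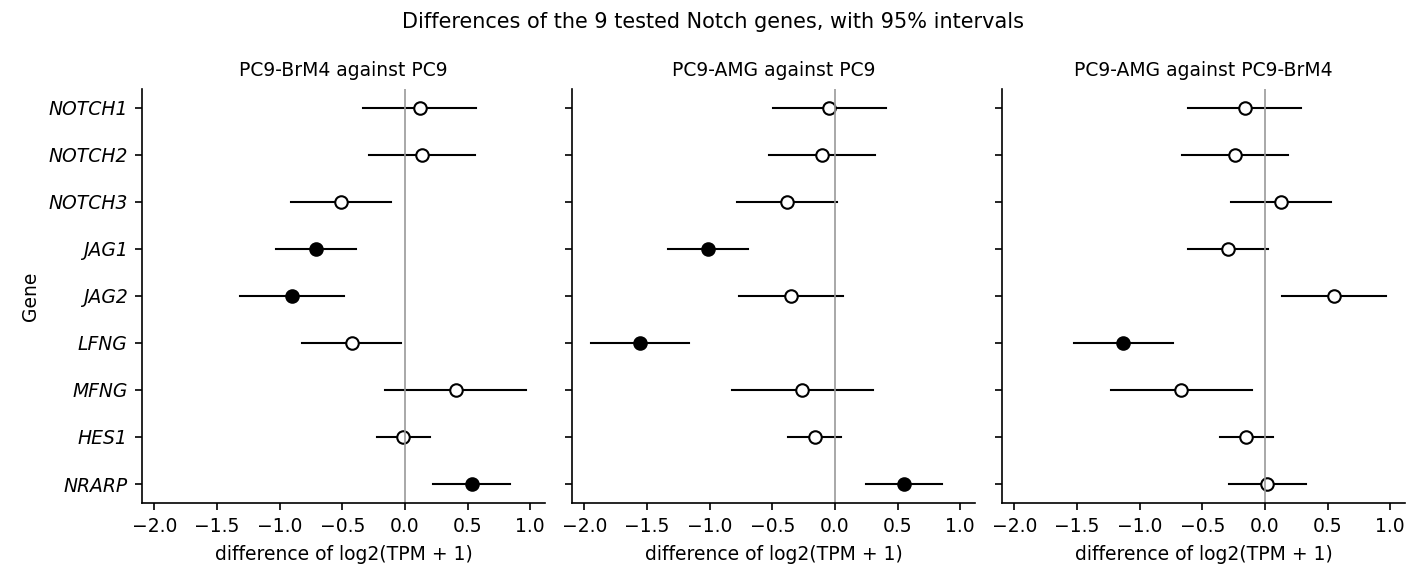
Difference of log2(TPM + 1) of the 9 tested genes in the 3 comparisons, with 95% intervals from limma and filled points for called genes. LFNG lies at -1.56 and -1.13 in the comparisons of PC9-AMG, and the HES1 intervals include 0 in all 3.

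Among the target genes, NRARP was higher in both derived lines, and HES1, the target with the highest level of these 3, was not called in any comparison. HES1 (chromosome 3, 194136142 to 194138612, plus strand), a transcriptional repressor, was at 138 and 146 TPM in PC9, 135 and 146 in PC9-BrM4, and 122 and 131 in PC9-AMG. PC9 and PC9-BrM4 overlapped, and both PC9-AMG libraries lay below them.

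The HES1 differences from PC9 were -0.01 (95% interval -0.22 to 0.20; limma adjusted p = 0.949) and -0.16 (-0.37 to 0.05; 0.316), and -0.15 (0.284) between the derived lines. These intervals bound the size of a difference and do not show that the lines are alike. HEY1 (chromosome 8, 79764010 to 79767863, minus strand), a related repressor, was between 0.247 and 0.544 TPM in the 6 libraries and was not tested. HES5, HEY2 and HEYL also stayed under 1 TPM.

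NRARP (chromosome 9, 137299631 to 137302251, minus strand) encodes an ankyrin-repeat protein that Notch induces and that dampens Notch signalling. Its level was 10.7 and 11.8 TPM in PC9, 16.0 and 17.5 in PC9-BrM4, and 16.6 and 17.3 in PC9-AMG. All 4 libraries of the derived lines lay above both PC9 libraries and overlapped with each other.

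Mean NRARP was 1.49 times PC9 in PC9-BrM4 (0.53 ± 0.137; 95% interval 0.23 to 0.84; limma adjusted p = 0.0271) and 1.50 times in PC9-AMG (0.55 ± 0.137; 0.24 to 0.86; 0.0413). The calls were not firm. That in PC9-BrM4 was lost without any 1 of the 4 libraries (adjusted p from 0.0543 to 0.249), under median centring (0.0685) or quantile normalization (0.0708), and with no filter (0.0506). In PC9-AMG the call was lost without any 1 of the 4 libraries (0.102 to 0.335), with no filter (0.0861) and without the variance trend (0.0672). The difference between the derived lines was 0.02 (-0.29 to 0.32; adjusted p = 0.943).

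Of the 11 genes on the target list, 6 were tested. HES4 was at 23.2 ± 2.21 TPM in PC9, 23.3 ± 1.94 in PC9-BrM4 and 35.1 ± 0.210 in PC9-AMG (SD, n = 2). It was higher in PC9-AMG than in PC9 by 0.58 (limma adjusted p = 0.0274) and than in PC9-BrM4 by 0.57 (0.014). The HES4 call against PC9 was lost without any 1 of the libraries compared, with no filter and without the variance trend. That against PC9-BrM4 was lost without PC9-BrM4 library 1 or either PC9-AMG library. CCND1, the cell-cycle gene for cyclin D1 and a target of many pathways, was at 97.2 ± 0.555, 139 ± 17.8 and 97.4 ± 5.57 TPM. It was higher in PC9-BrM4 than in PC9 by 0.50 (adjusted p = 0.0132) and lower in PC9-AMG than in PC9-BrM4 (difference -0.50, adjusted p = 0.0129). Both CCND1 calls were lost without some single libraries, PC9-BrM4 library 1 among them (adjusted p at most 0.102 and 0.0844).

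The rest of the pathway was read from 8 role lists, which hold 78 genes with the 10, of which 68 were tested. Leaving the 10 out, 59 were tested. In PC9-BrM4 against PC9, 5 of the 59 were called (4 higher and 1 lower) beside 16.3% of all tested genes, with a median of 0.06 beside 0.087 for all tested genes. In PC9-AMG against PC9, 7 were called (2 higher and 5 lower) beside 7.49%, with a median of -0.10 beside -0.051. In PC9-AMG against PC9-BrM4, 15 were called (4 higher and 11 lower) beside 18.6%, with a median of -0.24 beside -0.131. Median centring changed these splits to 4 higher and 4 lower, 3 and 3, and 6 and 4. A fit to only the 4 libraries of the third comparison called 9 of the 59 and 1953 of all tested genes. The main fit shares its estimate of the spread over the groups. The median log2 gap between a group's libraries was 0.09 in PC9, 0.18 in PC9-BrM4 and 0.17 in PC9-AMG. Leaving out 1 library at a time gave 1 to 6, 0 to 8 and 3 to 21 calls. The lowest came without PC9 library 1 or PC9-BrM4 library 1 in the first comparison and without either PC9 library in the second. In the third it came without PC9-BrM4 library 1. Fewer of all tested genes were called in each of these fits too.

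**Figure D4:**
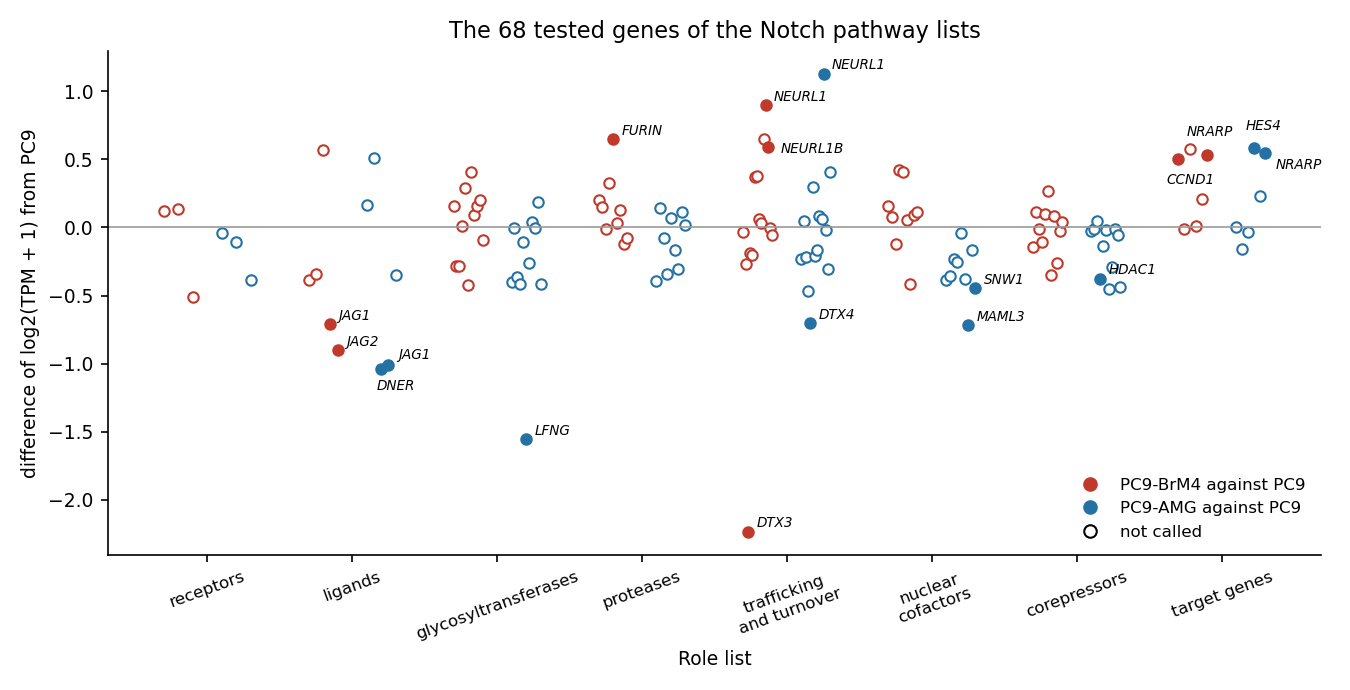
Difference of log2(TPM + 1) from PC9 for the 68 tested genes of the 8 role lists, in red for PC9-BrM4 and blue for PC9-AMG, with filled points for called genes. Most points lie within 0.5 of 0, and DTX3 at -2.24 and LFNG at -1.56 lie lowest.

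Among 9 proteases that cut the receptors, 1 was called in PC9-BrM4 against PC9, 0 in PC9-AMG against PC9, and 4 in PC9-AMG against PC9-BrM4, all lower, where 12.3% of all tested genes were lower and 6.31% higher. In the comparisons against PC9, 16.3% and 7.49% of all genes were called. At an unadjusted p under 0.05 in limma, 2 of the 9 passed in PC9-AMG against PC9. FURIN, which cuts the receptor precursor, was at 54.7 ± 4.26 TPM in PC9, 86.7 ± 11.5 in PC9-BrM4 and 57.5 ± 7.08 in PC9-AMG. It was higher in PC9-BrM4 than in PC9 by 0.65 (adjusted p = 0.00962) and lower in PC9-AMG than in PC9-BrM4 (difference -0.58, adjusted p = 0.0149). ADAM10, the sheddase that makes the ligand-dependent cut, was at 118 ± 3.09, 137 ± 22.9 and 89.4 ± 5.67 TPM, and lower in PC9-AMG than in PC9-BrM4 (difference -0.60, adjusted p = 0.00886). The gamma-secretase subunit APH1B was lower in the same comparison (difference -0.66, adjusted p = 0.0283). Without PC9-BrM4 library 1 the calls of FURIN, ADAM10 and APH1B were all lost, and over all alternatives their adjusted p reached at most 0.124.

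Of 14 trafficking and turnover genes, 3, 2 and 5 were called in the 3 comparisons, beside 16.3%, 7.49% and 18.6% of all tested genes. DTX3, a Deltex-family ubiquitin ligase, was at 10.4 and 12.3 TPM in PC9, 1.66 and 1.57 in PC9-BrM4, and 10.7 and 8.60 in PC9-AMG. Both PC9-BrM4 libraries lay far below the other 4. The difference of PC9-BrM4 from PC9 was -2.24 (limma adjusted p = 4.73e-05) and that of PC9-AMG from PC9-BrM4 was 2.02 (0.000112), and both held under all 20 alternatives. Its 20 nearest tested genes, 10 on each side, had a median difference of -0.54 in PC9-BrM4 against PC9. Of them 9 were called lower and 0 higher, beside 6.45% and 9.89% of all tested genes. DTX3 thus lay among neighbours of which many were also lower.

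NEURL1, a Neuralized ubiquitin ligase that acts on ligands, was at 1.45 ± 0.289, 3.55 ± 0.120 and 4.37 ± 0.691 TPM. It was higher than PC9 by 0.90 in PC9-BrM4 (limma adjusted p = 0.0176) and 1.13 in PC9-AMG (0.0149), calls that were lost without any 1 of the libraries compared (at most 0.14 and 0.118). Its relative NEURL1B, at 11.3 and 10.9 TPM in PC9, 19.97 and 14.9 in PC9-BrM4, and 12.2 and 9.78 in PC9-AMG, was higher in PC9-BrM4 than in PC9 by 0.59 (0.0476) and lower in PC9-AMG than in PC9-BrM4 (difference -0.61, adjusted p = 0.0386). DTX4, another Deltex gene, was lower in PC9-AMG than in PC9 (difference -0.70, adjusted p = 0.0198) and than in PC9-BrM4 (difference -0.50, adjusted p = 0.0344). ITCH, a ubiquitin ligase that marks Notch for turnover, was lower in PC9-AMG than in PC9-BrM4 (difference -0.59, adjusted p = 0.015). NUMBL, a relative of the Notch antagonist NUMB, was higher there by 0.46 (0.0433); it was chosen after its values were seen. The NEURL1B calls were lost under 10 and 12 of the 20 alternatives, the DTX4 calls under 5 and 10, and the ITCH call under 5.

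RBPJ, through which all receptors act, was between 26.2 and 36.8 TPM and not called. Of 9 nuclear cofactors, 0 were called in PC9-BrM4 against PC9 (2 at an unadjusted p under 0.05 in limma), and 2 were lower in each comparison of PC9-AMG. Of all tested genes, 16.3% were called in the first, and 3.82% and 12.3% were lower in the comparisons of PC9-AMG with PC9 and PC9-BrM4. MAML3, a Mastermind coactivator, was at 7.26 ± 0.622, 5.20 ± 0.532 and 4.04 ± 0.377 TPM and lower in PC9-AMG than in PC9 (difference -0.71, adjusted p = 0.0409), lost under 6 of 20 alternatives. SNW1, a splicing factor that also binds the Notch complex, was at 224 ± 5.78, 243 ± 13.2 and 165 ± 19.0 TPM. It was lower in PC9-AMG than in PC9 (difference -0.45, adjusted p = 0.03) and than in PC9-BrM4 (difference -0.56, adjusted p = 0.00492), and under median centring both calls were lost. The acetyltransferase KAT2B was lower in PC9-AMG than in PC9-BrM4 (difference -0.67, adjusted p = 0.0462), lost under 13 of 19 alternatives. Of 11 tested corepressors, HDAC1, a histone deacetylase, was the only one called, lower in PC9-AMG than in PC9 (difference -0.38, adjusted p = 0.0449), and lost under 9 of 20 alternatives.

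The genes around the called genes were also read. The 20 tested genes nearest LFNG had a median difference of 0.14 in PC9-AMG against PC9, with 2 called higher and 0 lower, while LFNG was at -1.56. In PC9-AMG against PC9-BrM4 their median was -0.11, with 0 called higher and 3 lower, while LFNG was at -1.13. Those nearest JAG1 had medians of 0.08 in PC9-BrM4 and -0.27 in PC9-AMG, and 0 of them were called in PC9-AMG against PC9 (4 at an unadjusted p under 0.05 in limma). Those nearest JAG2 had 0.11 in PC9-BrM4 (2 called higher and 2 lower). Those nearest NRARP had 0.03 in PC9-BrM4 (3 called higher and 1 lower) and 0.07 in PC9-AMG (3 higher and 0 lower). Of all tested genes, 9.89% were called higher and 6.45% lower in PC9-BrM4 against PC9. The shares were 3.67% and 3.82% in PC9-AMG against PC9, and 6.31% and 12.3% in PC9-AMG against PC9-BrM4. LFNG, JAG1, JAG2 and NRARP were chosen as called genes, so a place beyond the median of their neighbours was likely beforehand and carries no test. By the gene positions in the deposited library tables, only microRNA genes overlapped the 10 genes on the same strand. Each stood at 1.61 TPM or less.

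The genes whose pattern over the 6 libraries was most like each called gene were found by Pearson's r on log2(TPM + 1), given as a description. The 6 points share their libraries and 3 groups, and many genes reach high values. Candidates needed a minimum range of group means that rises with the range of the called gene. The candidate sets thus differ, and the counts of matches cannot be compared between called genes. For JAG1 they were P3H2 (0.996), FAM13A (0.994) and PFKFB3 (0.992), with 71 of 2833 candidates over 0.95. For JAG2 they were FAXDC2 (0.996), CUX1 (0.994) and PDE4A (0.985), with 45 of 3554 over 0.95. For NRARP they were MRPL14 (0.997), FEN1 (0.997) and RIOK1 (0.995), with 82 of 6841. For LFNG they were TNFAIP2 (0.986), IRF2BPL (0.976) and PDGFB (0.975), with 7 of 1025. TNFAIP2 stood at 208 and 207 TPM in PC9, 167 and 148 in PC9-BrM4, and 75.7 and 67.3 in PC9-AMG, the same order of groups as LFNG.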

How the data were processed

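Messenger RNA was measured in 6 libraries, 2 per group, grouped by title. Per the labels' protocols, TRIzol total RNA was made into TruSeq Stranded mRNA libraries. The tools named per the submitters' processing notes are StringTie 1.3.4d and HISAT2 2.1.0, with build hg38, and the annotation is not given in the sources used here. TPM and FPKM in the deposited library tables were computed by the authors with StringTie. Coverage in the same deposited tables is the mean per-base read coverage. Rows of a symbol (1449 genes) were summed. The deposited table over all libraries holds the same TPM for the 10 genes.

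Of 26485 genes, the 14627 that reached 1 TPM in 2 or more libraries entered the test, made on log2(TPM + 1) by limma 3.58.1 (R 4.3.3). The fit took all 6 libraries, with a mean for each group and a variance trend (3 residual and 6.81 prior degrees of freedom), and the script was tested on simulated data. The 10 genes and the lists were chosen with earlier results of these data known. Named were the 10 genes, up to 5 called genes per role list, up to 3 per other list, and the 3 genes most like each called one. The last had at least 5 TPM in their highest group and a range of group means large enough beside that of the called gene. Clone, locus and small-RNA names were left out. Some genes that the rule names are not reported here. Alternatives were 20 other settings: scaling, pseudocount, filter, FPKM, moderation, a replicate block, each library left out and, chosen after seeing the data, the length trend removed. Promoter windows came from RefSeq (GRCh38.p14). Depth is unknown and limits the precision in an unknown way, so no counting interval was computed.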

Additional observations from a re-analysis of the deposited data

How the results depend on the processing

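Of 53 gene results, 33 were called, 5 kept their call under all 20 alternatives (LFNG and DNER in PC9-AMG against PC9-BrM4, LFNG in PC9-AMG against PC9, and DTX3 in both comparisons with PC9-BrM4), and 0 changed the sign of a called value. With 2 libraries a group, counts moved with single libraries. Leaving out each library in turn gave 892 to 2383 called genes in PC9-BrM4 against PC9, 131 to 1152 in PC9-AMG against PC9 and 1024 to 2886 in PC9-AMG against PC9-BrM4, where all 6 libraries gave 2389, 1096 and 2720. Of the 9 tested genes it gave 0 to 4, 1 to 3 and 1 to 3, and of the wider pathway 1 to 6, 0 to 8 and 3 to 21. The lowest count of the 9 genes in the first comparison came without PC9 library 2. The lowest of the wider pathway in the second came without either PC9 library. In each of these fits, fewer of all tested genes were called than with all 6 libraries.

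In PC9-BrM4 against PC9, 1 of the 9 genes was called with no filter and 5 with the length trend removed; of the wider pathway 8 were called under median centring, 8 under quantile normalization and 9 with the length trend removed. In PC9-AMG against PC9, no filter gave 250 genes and 0 of the wider pathway (16 at an unadjusted p under 0.05 in limma), and moderation without the trend gave 325 and 2. In PC9-AMG against PC9-BrM4, no filter gave 1799 genes and 7 of the wider pathway, and a fit to the 4 libraries alone gave 1953 and 9. There, 2 of the 9 genes were called under each of median centring, quantile normalization, the filter at 5 TPM, FPKM, robust moderation and the length trend removed. The causes were not tested. Median centring gave 917 higher and 1293 lower genes in PC9-BrM4 against PC9 (1446 and 943 without it), 685 and 436 in PC9-AMG against PC9 (537 and 559), and 1606 and 900 in PC9-AMG against PC9-BrM4 (923 and 1797).

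Whether the library numbers pair the samples is not said in the labels. Deviations of libraries with the same number correlated at 0.029, -0.039 and 0.003. These values show little shared shift and cannot tell how the libraries were made. With a replicate block, 2483, 1298 and 2905 genes were called, and 4, 3 and 1 of the 9 genes. NOTCH3 in PC9-BrM4 against PC9 was called under the block (adjusted p = 0.025). Of the wider pathway the block gave 6, 7 and 16.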

Other observations

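Lung cell types that Notch signalling is known to steer were read from their marker genes. Of 8 neuroendocrine markers, 7 were at 0 in every library, the chromogranin genes CHGA and CHGB among them, and 0 were tested. Of 8 secretory airway markers, 5 were at 0 in every library and all 8 stayed under 1 TPM. Of 8 ciliated airway markers, 3 were tested. FOXJ1, the transcription factor of ciliated cells, was at 7.47 ± 0.391 TPM in PC9, 3.60 ± 0.170 in PC9-BrM4 and 5.63 ± 0.897 in PC9-AMG (SD, n = 2). It was lower in PC9-BrM4 than in PC9 (difference -0.88, limma adjusted p = 0.00979), with -0.36 (0.242) in PC9-AMG against PC9 and 0.52 (0.0703) in PC9-AMG against PC9-BrM4. DNAH5, a dynein heavy chain of motile cilia, was lower in PC9-AMG than in PC9 (difference -0.72, limma adjusted p = 0.0357) and than in PC9-BrM4 (-0.60, 0.0379), with -0.13 (0.660) in PC9-BrM4 against PC9. TPPP3, a tubulin-binding protein, was lower in PC9-AMG than in PC9-BrM4 (difference -0.69, limma adjusted p = 0.00646), with 0.22 (0.307) in PC9-BrM4 against PC9 and -0.48 (0.0558) in PC9-AMG against PC9.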
